A study of Mus musculus with 4 samples.

Results

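Mitochondria carry their own ribosome, which translates the few messenger RNAs of the mitochondrial genome into core subunits of the respiratory chain. Its RNAs are made inside the organelle, whereas all of its proteins are encoded in the nucleus, translated in the cytosol and imported. Genes of the large subunit are named Mrpl and those of the small subunit Mrps, although the products of Mrps30 and Mrps18a sit in the large subunit. Resting lymphocytes hold little mitochondrial mass, and their activation is known to bring growth of the organelle.

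The genes described here are those whose symbol begins with Mrpl or Mrps and a number, pseudogenes left out, on probe sets annotated to exactly 1 symbol. This gave 71 genes of 22180 named genes, 43 of them Mrpl and 28 Mrps, each represented by its brightest probe set. All 71 passed the filter on low signals, and all 71 lay above the signal floor of 3.83, the median of all named values, in each of the 4 arrays. Another 7 genes of the family (Mrpl30, Mrpl33, Mrpl41, Mrpl43, Mrpl44, Mrpl53 and Mrps6) have only probe sets that carry several symbols and were not used here. Mrps36 was kept because its symbol fits, but its product is now known as a part of the oxoglutarate dehydrogenase complex and not as a ribosomal protein.

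The cells were B lymphocytes, sorted by B220 from C57BL/6 mice whose spleens, lymph nodes and thymi were used, with 1 array for each of 4 groups. Wild-type cells and cells of Tilcara mice, described as a PKCbeta mutant on the same background, were taken without stimulation or after 4 hours of 10 ng/mL PMA (a phorbol ester that activates protein kinase C) plus 1 µM of the calcium ionophore A23187. The sources used here give neither the nature of the Tilcara mutation nor the number of mice behind an array. The comparisons ask how transcripts of the mitochondrial ribosome differ after stimulation and whether the mutant differs in either state. No hours are given for the non-stimulated cells, called resting below, so time in culture cannot be told apart from the drugs.

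The values are RMA signals in log2 units, so a difference of 1 is 2-fold, and no group has a replicate. The stimulation effect was therefore tested with limma over 12456 genes in a fit of stimulation and genotype together, in which both genotypes serve as the samples of each state and only 1 residual degree of freedom remains; rose and fell refer to an adjusted p under 0.05 in that fit. All 7 measured B cell markers, such as Cd79a and Ms4a1, exceeded the floor in every array, but the log2 of their summed signal was 13.39 and 10.86 in wild type and 13.36 and 11.27 in Tilcara, each pair without and then with stimulation. The same sum was 9.63 and 6.32 in wild type and 6.44 and 6.09 in Tilcara for 9 neutrophil markers, of which Ngp, Ltf, Camp, Retnlg and Ly6g lay below the floor in all 4 arrays. For 7 T cell markers, with Cd8a below the floor throughout, it was 7.30 and 7.87 in wild type and 6.40 and 7.61 in Tilcara. Il7r made up most of the stimulated T cell sums, at 4.20 and 7.26 in wild type, and 3.23 and 7.07 in Tilcara. The other 6 T cell markers were all lower in the stimulated wild-type array, Cd3d reading 5.09 and 3.28 in wild type, and 4.59 and 3.61 in Tilcara, and the number above the floor was 6 and 2 in wild type and 1 and 2 in Tilcara. For 5 NK cell markers, with Klrb1c below the floor throughout, it was 7.33 and 5.81 in wild type and 7.47 and 5.84 in Tilcara. For 6 macrophage markers, with Cd14 below the floor throughout, it was 7.71 and 7.53 in wild type and 6.91 and 7.77 in Tilcara. Cd68 made up most of the stimulated macrophage sums, at 6.33 and 7.08 in wild type, and 6.05 and 7.44 in Tilcara, whereas Lyz2 read 5.99 and 3.28 in wild type, and 3.43 and 2.52 in Tilcara and Adgre1 4.70 and 2.87 in wild type, and 3.79 and 2.84 in Tilcara. For 3 markers of plasmacytoid dendritic cells it was 7.68 and 7.24 in wild type and 8.34 and 7.47 in Tilcara, and for 3 thymocyte markers, with Dntt below the floor throughout, 5.73 and 5.50 in wild type and 5.11 and 5.60 in Tilcara. The part of these cells in the results below was not tested, and fewer cells of a type cannot be told apart from less RNA per cell in such samples.

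Transcripts of the mitochondrial ribosome were mostly higher after stimulation. Of the 71 genes, 38 rose, 1 fell and 32 were not called by limma. Over all 12456 genes, 22.0% rose and 22.8% fell. The rises ran from 1.42-fold to 4.23-fold, and 21 of them were at least 2-fold by the limma estimate. The median effect of the 71 genes was 0.65 on the log2 scale, against 0.040 for all genes used. In single comparisons the median difference was 0.70 in wild type and 0.62 in Tilcara, beside medians of 0.033 and 0.040 over all genes. The difference was above 0 for 58 of the 71 genes in wild type and 61 in Tilcara, beside 51.7% and 52.4% of all genes. In 56 of the 71 genes both stimulated arrays lay above both non-stimulated arrays, which was so for 39.1% of all genes, and in 7 both lay below, which was so for 35.5%. The other 8 overlapped.

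These counts depend on how the values were scaled and fitted. After cyclic loess between the arrays 33 genes rose and 5 fell, and 24 rose and 1 fell when all 23157 probe sets above the floor, those with several or no symbols included, were fitted in place of 1 per gene. The 24 were among the 38.

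**Figure D1:**
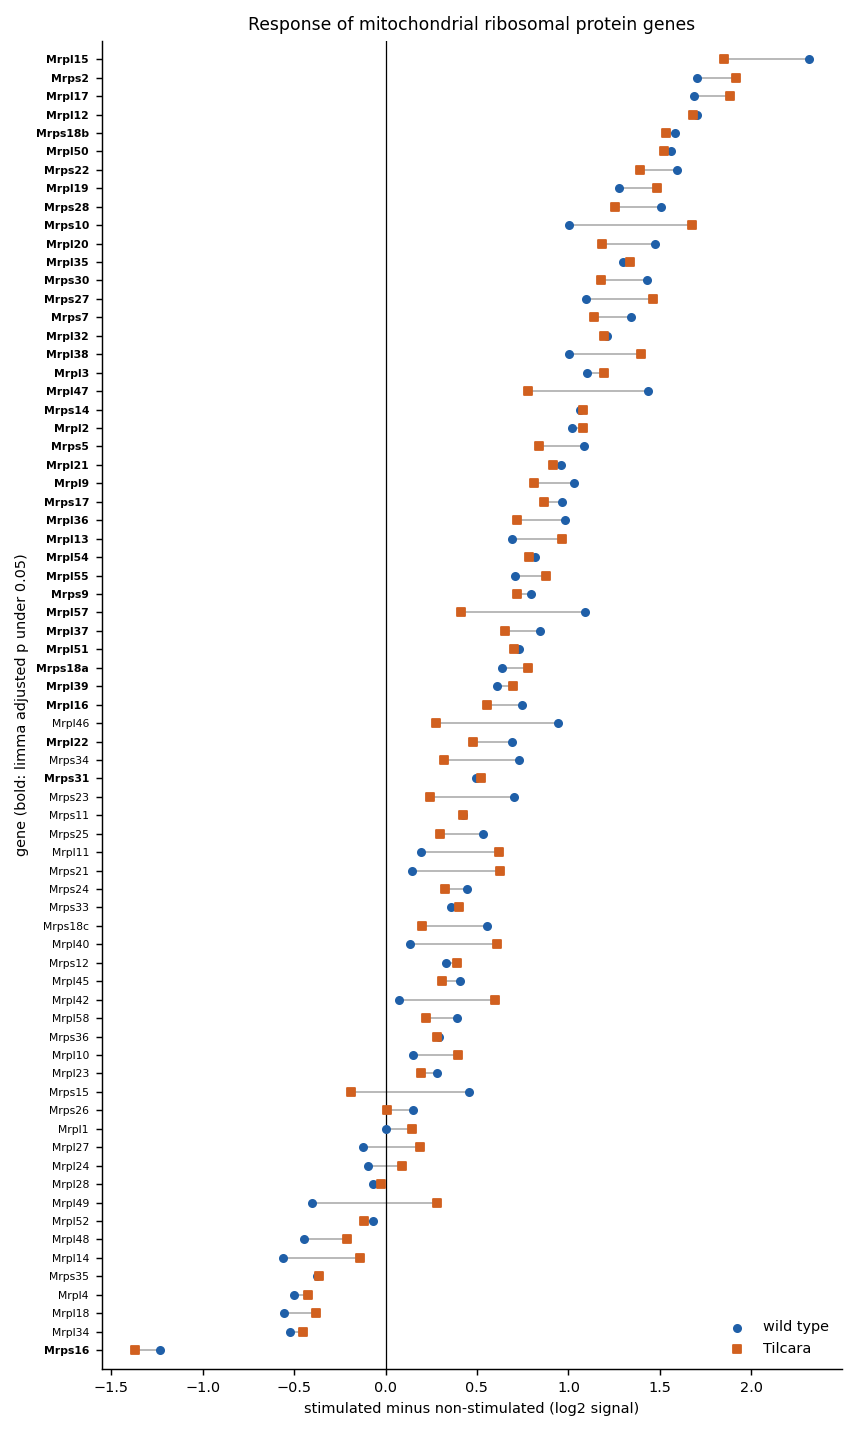
Stimulated minus non-stimulated log2 signal of each of the 71 genes (vertical axis, sorted by the limma effect) in wild type (circles) and Tilcara (squares), 1 array per state and genotype, with a line joining the genotypes. Most genes lie to the right of 0 in both genotypes, from Mrpl15 at the top to Mrps16 at the bottom, the only bold gene left of 0.

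Mrpl15, a protein of the large subunit with a counterpart in bacteria, had the largest effect. Its signals were 6.05 and 8.36 in the wild-type arrays without and with stimulation, and 6.67 and 8.52 in the Tilcara arrays (limma log2 change 2.08, SE 0.18, adjusted p = 0.00224). Both stimulated arrays were far above both non-stimulated ones, and the non-stimulated Tilcara array exceeded the wild-type array. Mrps2, a small-subunit protein also found in bacteria, read 5.20 and 6.90 in wild type, and 4.93 and 6.84 in Tilcara (limma log2 change 1.81, SE 0.15, adjusted p = 0.00214). Mrpl17, the counterpart of bacterial L17, read 7.22 and 8.90 in wild type, and 7.14 and 9.03 in Tilcara (limma log2 change 1.78, SE 0.15, adjusted p = 0.00218). Mrpl12 forms the flexible stalk of the large subunit to which translation factors bind, and its signals were nearly the same in both genotypes, at 7.07 and 8.77 in wild type, and 7.09 and 8.77 in Tilcara (limma log2 change 1.69, SE 0.15, adjusted p = 0.0022). Its second, dimmer probe set differed by 1.74 in wild type and 1.81 in Tilcara.

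Next in order came Mrps18b (1.56), Mrpl50 (1.54), Mrps22 (1.49), Mrpl19 (1.38), Mrps28 (1.38) and Mrps10 (1.34) by their limma log2 effects. Neighbours in this order differ by less than their SEs, which lay between 0.15 and 0.22 over the family. Mrpl50 and Mrps22 are proteins particular to mitochondria, while Mrpl19, Mrps28 and Mrps10 belong to protein families shared with bacteria. Mrps10 differed most between the genotypes among these 6, with signals of 6.28 and 7.28 in wild type, and 5.91 and 7.58 in Tilcara.

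Mrps16, the counterpart of bacterial S16 in the small subunit, was the only gene that fell. It read 10.26 and 9.03 in the wild-type arrays without and with stimulation, and 10.47 and 9.10 in the Tilcara arrays, a decrease of 2.46-fold (limma log2 change −1.30, SE 0.15, adjusted p = 0.00414). Both stimulated arrays lay at least 2-fold below both non-stimulated ones. A second probe set of Mrps16 differed by −1.44 in wild type and −1.45 in Tilcara. Under the 7 alternatives the effect ranged from −1.51 to −1.30 with limma, and it passed the threshold in each.

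The promoter stretches of the 3 highest genes with an entry in the RefSeq table and of the falling gene are shown to set the opposite responses beside their sequences; Mrpl15 has no entry there. Each runs 5′ to 3′ up to the base before the annotated start on GRCm38.p6, from the most upstream start where several are listed. Capitals mark matches, on either strand, to 6 motifs searched: the E-box CACGTG, the NRF1 motif, the ETS motif CCGGAAGT bound by GABP, the YY1 motif AAGATGGC, the NF-Y motif CCAAT and the cyclic AMP element TGACGTCA. No motif holds another. The stretches are chr2:28467916-28468065 on the plus strand for Mrps2, chr7:105811088-105811237 on the minus strand for Mrpl17, chr11:120484487-120484636 on the plus strand for Mrpl12 and chr14:20393635-20393784 on the minus strand for Mrps16.
Mrps2: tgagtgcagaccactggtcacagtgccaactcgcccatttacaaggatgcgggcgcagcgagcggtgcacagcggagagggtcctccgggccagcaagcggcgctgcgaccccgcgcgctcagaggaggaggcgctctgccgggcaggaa
Mrpl17: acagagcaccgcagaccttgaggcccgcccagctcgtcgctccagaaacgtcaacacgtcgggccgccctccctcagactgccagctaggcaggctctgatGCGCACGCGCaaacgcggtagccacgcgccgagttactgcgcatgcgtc
Mrpl12: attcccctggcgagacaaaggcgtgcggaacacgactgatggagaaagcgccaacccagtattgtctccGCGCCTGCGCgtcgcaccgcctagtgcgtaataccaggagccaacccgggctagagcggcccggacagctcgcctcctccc
Mrps16: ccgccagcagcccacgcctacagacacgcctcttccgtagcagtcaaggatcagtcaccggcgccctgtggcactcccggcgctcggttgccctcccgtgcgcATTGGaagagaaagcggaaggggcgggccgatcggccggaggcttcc
Mrpl17 and Mrpl12 each hold 1 NRF1 match, with its first base at −49 and −81 from the start. Mrps16 holds 1 NF-Y match at −47, and none of the 6 motifs was matched in the stretch of Mrps2.

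**Figure D2:**
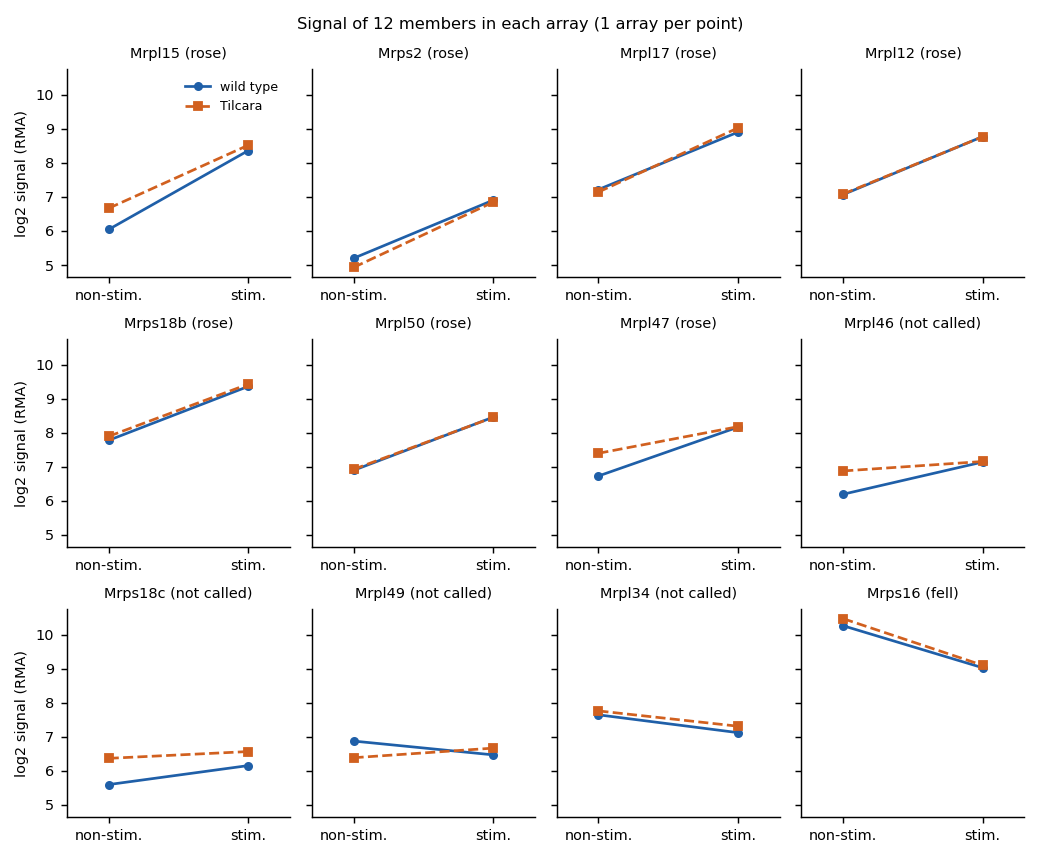
Log2 signal (vertical axis) of 12 genes in the non-stimulated and stimulated array of wild type (solid line, circles) and Tilcara (dashed line, squares), 1 array per point. Lines of Mrpl12 and Mrpl50 nearly coincide, Mrpl46 and Mrpl47 start apart and meet after stimulation, Mrpl49 crosses, and Mrps16 runs downward in both genotypes.

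At the low end of the order, 10 genes other than Mrps16 had negative limma effects that did not pass the test. Mrpl34, a small basic protein with a bacterial counterpart, read 7.65 and 7.13 in wild type, and 7.76 and 7.31 in Tilcara (limma log2 change −0.49, SE 0.15, adjusted p = 0.0549). Mrpl18 read 7.49 and 6.94 in wild type, and 7.50 and 7.12 in Tilcara (limma log2 change −0.47, adjusted p = 0.066), and Mrpl4 read 6.79 and 6.29 in wild type, and 6.61 and 6.18 in Tilcara (limma log2 change −0.46, adjusted p = 0.0623). In each of these 3 genes both stimulated arrays lay below both non-stimulated ones, and all 3 passed the test after cyclic loess, along with Mrps35. Effects of Mrps35, Mrpl14, Mrpl48, Mrpl52, Mrpl49 and Mrpl28 were −0.37, −0.35, −0.33, −0.095, −0.061 and −0.048. Mrpl24, at the exit of the peptide tunnel, had the smallest limma effect in size (−0.0018), with signals of 9.11 and 9.02 in wild type, and 9.07 and 9.16 in Tilcara.

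By origin, 17 of 28 measured large-subunit proteins with a bacterial counterpart rose and none fell, with a median effect of 0.81. Of all genes used, 22.0% rose and 22.8% fell, and their median was 0.040. Of the large-subunit proteins particular to mitochondria, 9 of 17 rose and none fell (median 0.65). In the small subunit, 8 of 15 proteins with a bacterial counterpart rose and 1 fell (median 0.76), and 4 of 10 proteins particular to mitochondria rose and none fell (median 0.49). The last 4 were Mrps18b, Mrps22, Mrps27, which carries RNA-binding helical repeats, and Mrps31. The differences between these classes were not tested.

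Functional sites of the ribosome were not uniform either. At the stalk and its base Mrpl12 rose, while Mrpl11 (0.41) and Mrpl10 (0.27) were not called. Around the peptidyl transferase centre, where peptide bonds form, Mrpl3 (limma log2 change 1.15), Mrpl2 (1.05) and Mrpl16 (0.65) rose and Mrpl27 (0.034) was not called. Mrpl3, a core protein of that region, read 7.07 and 8.17 in wild type, and 6.83 and 8.02 in Tilcara, so the stimulated arrays lay above the others in both genotypes. Mrpl27 read 4.59 and 4.47 in wild type, and 4.38 and 4.56 in Tilcara, with overlapping states.

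Near the exit tunnel, Mrpl47 (1.11) and Mrpl22 (0.59) rose, and Mrpl45 (0.36), which ties the ribosome to the inner membrane, Mrpl23 (0.24) and Mrpl24 (−0.0018) were not called. In the central protuberance, Mrpl38 (1.20) and Mrpl55 (0.79) rose, and Mrpl46 (0.61), Mrpl40 (0.37), Mrpl48 (−0.33) and Mrpl18 (−0.47) were not called. Of the proteins along the path of the messenger RNA, Mrps2 (1.81) and Mrps5 (0.96) rose and Mrps24 (0.39) and Mrps12 (0.36) were not called. Mrps12 is the counterpart of bacterial S12, a protein of the decoding site, and read 6.79 and 7.12 in wild type, and 6.75 and 7.14 in Tilcara.

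The Mrps18 paralogues are related to bacterial S18 and occupy different places in the mitochondrial ribosome. Mrps18c was counted above as its counterpart, and Mrps18a and Mrps18b among proteins particular to mitochondria, since they sit elsewhere. Mrps18b read 7.78 and 9.36 in wild type, and 7.90 and 9.43 in Tilcara (limma log2 change 1.56, SE 0.15, adjusted p = 0.0026), and its dimmer probe set differed by 1.46 and 1.54. Mrps18a, whose product lies in the large subunit, read 7.07 and 7.71 in wild type, and 7.03 and 7.81 in Tilcara (limma log2 change 0.71, SE 0.15, adjusted p = 0.0203). Mrps18c, which takes the place of S18 in the small subunit, read 5.60 and 6.16 in wild type, and 6.37 and 6.57 in Tilcara (limma log2 change 0.38, SE 0.17, adjusted p = 0.139). The states of Mrps18c overlapped, and its dimmer probe set went the other way, by −0.47 in wild type and −0.43 in Tilcara. The effect of Mrps18c was −0.038 when both probe sets were averaged, so no direction can be given for it.

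Of the 9 genes with several probe sets, Mrpl10 was the other one whose probe sets differed in sign, by 0.15 and −0.22 in wild type. In Tilcara its probe sets differed by 0.40 and 0.33. No pair of probe sets of the other 7 genes disagreed in sign in either genotype.

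Among subunits that carry other names, Ptcd3 (1.31) and Gadd45gip1 (1.15) rose by limma, and Dap3 (0.27) was not called. Of 23 factors used that assemble the ribosome or modify its RNA, 9 rose (39.1%, beside 22.0% of all genes) and none fell (beside 22.8%). Their median was 0.38. The ribosomal RNA methyltransferase gene Mrm3 led them (limma log2 change 1.96, SE 0.16, adjusted p = 0.00204). It was followed by Fastkd2 (1.48), which read 5.18 and 6.71 in wild type, and 5.43 and 6.88 in Tilcara, and the GTPase gene Noa1 (1.34). Mettl15 (−0.82), Rpusd3 (−0.52) and Mettl17 (−0.48) had the lowest effects and were not called.

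Translation factors of the organelle went both ways, and neither share was far from that of all genes. Of 13 used, 4 rose (30.8%) and 3 fell (23.1%), beside 22.0% and 22.8% of all genes. Their median was 0.00. The 4 were elongation factors and a recycling factor: Gfm1 (1.39), Mrrf (1.29), Tufm (1.08) and Tsfm (1.04). Tufm encodes the factor that brings aminoacyl-tRNA to the ribosome and read 6.33 and 7.44 in wild type, and 6.50 and 7.55 in Tilcara. Those that fell were Mtrf1, related to release factors (−1.39), the membrane insertase gene Oxa1l (−0.63) and Gfm2 (−0.63), which acts in ribosome recycling. Mtrf1 read 3.94 and 2.51 in wild type, and 4.83 and 3.49 in Tilcara, and its stimulated values lie below the floor.

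All 18 listed genes of mitochondrial import and of chaperones and proteases in the organelle rose, beside 22.0% of all genes, with a median of 1.60. The list is a selection made with earlier results of these data known, so its count does not describe import genes at large. The largest effects were those of Timm8a1 (2.43), Timm50 (2.37), Tomm40 (2.26), which forms the outer membrane channel, and Timm9 (2.25). Hspe1, a chaperonin subunit, had the smallest, with signals of 10.08 and 10.58 in wild type, and 10.05 and 10.68 in Tilcara (limma log2 change 0.57, SE 0.15, adjusted p = 0.0378).

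Nuclear genes of the respiratory complexes, which join the proteins made by this ribosome, gave 11 that rose and 9 that fell of 75 used, with a median of 0.11. These shares, 14.7% and 12.0%, were both below the 22.0% and 22.8% of all genes. Uqcrq (1.21) and Ndufa12 (0.97) rose most, and Ndufb11 (−1.54) and Ndufv3 (−1.08) fell most. Genes with symbols of cytosolic ribosomal proteins gave 16 that rose and 1 that fell of 64 used, with a median of 0.15. The 25.0% that rose are near the 22.0% of all genes, whereas the 1.56% that fell are below the 22.8%. The 16 include Rps19bp1 and Rpl7l1, which do not encode subunits. Many of the 16 read low, such as Rpl27a at 3.82 and Rps15 at 4.23 in resting wild type, although Rpl3 read 9.86. The brightest, such as Rplp1 at 12.27 and Rps18 at 12.03 in that array, were not called. The lists were set beside one another only by counts and medians, and differences between them were not tested.

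**Figure D3:**
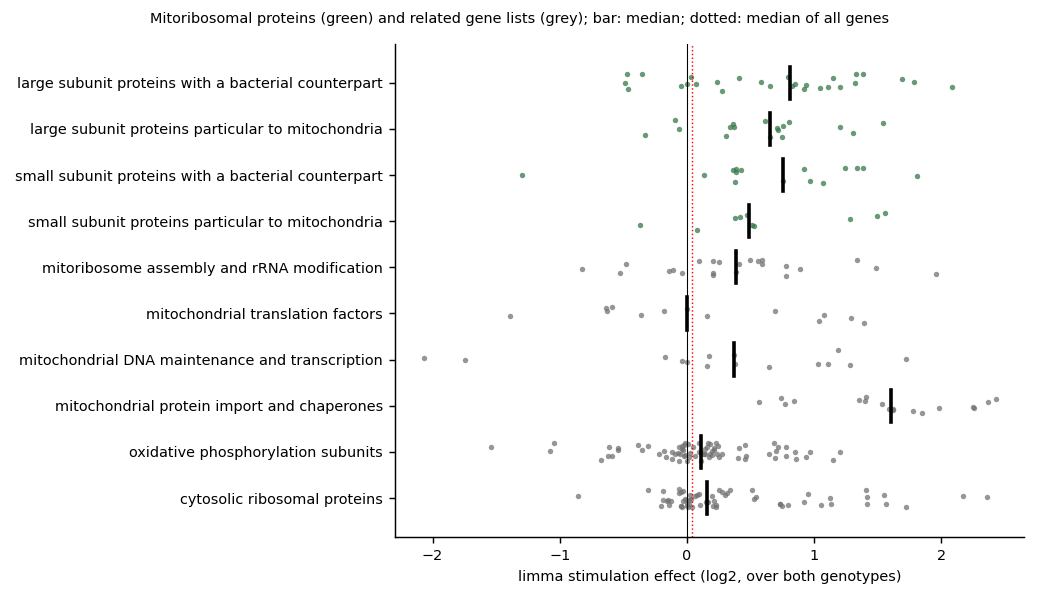
Limma stimulation effect over both genotypes (horizontal axis, log2) of single genes (points) in the 4 classes of mitochondrial ribosomal proteins (green, 70 genes without Mrps36) and in 6 related lists (grey), with black bars at the medians and a dotted line at the median of all genes. Points are spread vertically at random. Medians of the green classes lie between 0.49 and 0.81, that of import genes at 1.60 and those of the last pair of lists at 0.11 and 0.15.

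In wild type 24 of the 71 genes were at least 2-fold higher after stimulation, beside 13.4% of all genes, and 1 was at least 2-fold lower, beside 15.9%. In Tilcara 20 were at least 2-fold higher, beside 11.9%, and 1 lower, beside 14.3%. All 20 were among the 24, and 9.67% of all genes were at least 2-fold higher in both. The 4 genes past 2-fold in wild type alone were Mrpl47, Mrpl57, Mrps5 and Mrpl9. In Tilcara the differences of Mrpl9 and Mrps5 were 0.81 and 0.84. Across the 71 genes, which share their arrays and are not replicates, Pearson's r between the responses was 0.901.

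No gene of the family was called for genotype by limma, nor was any of the 12456 genes (0.0%). The genotype effect of that fit is the mean over both states, so it does not test either state alone. At an unadjusted p under 0.05 limma gave 1 gene of the family, Mrps18c, and 667 of all genes. Without stimulation 43 of the 71 genes were higher in Tilcara, beside 52.2% of all genes, and with stimulation 46, beside 51.8%. The median difference, Tilcara minus wild type, was 0.030 without and 0.038 with stimulation, and 0.016 and 0.012 over all genes. Regardless of direction, the median size of the difference was 0.095 without and 0.098 with stimulation, against 0.18 in both states over all genes. None of the 71 reached 2-fold in either state. Among all genes used, 2-fold was reached upward by 0.425% and downward by 0.658% in resting cells, and by 0.955% and 0.747% in stimulated cells.

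Without stimulation, 6 genes were higher in Tilcara by at least 0.5 on the log2 scale and none was lower by as much, where all genes gave 5.19% and 5.03%. They were Mrps18c (0.77), Mrpl46 (0.68), Mrpl47 (0.67), Mrpl15 (0.62), Mrps15 (0.61) and Mrpl57 (0.58). The dimmer probe set of Mrps18c differed between the genotypes by only 0.077 at rest and 0.12 after stimulation, against 0.77 and 0.41 for the one used. Mrpl47 read 6.73 and 8.17 in the wild-type arrays without and with stimulation, and 7.40 and 8.18 in the Tilcara arrays, so the genotypes were apart at rest and alike after stimulation. Its dimmer probe set read higher in resting Tilcara too, by 0.53. Dimmer probe sets of Mrpl10 and Mrps5 also passed 0.5 in size at rest. They differed by −0.52 and 0.61, against −0.08 and 0.20 for those used, so the counts depend on the probe set chosen. Mrpl46 read 6.20 and 7.14 in wild type, and 6.88 and 7.16 in Tilcara, Mrpl57 5.76 and 6.85 in wild type, and 6.34 and 6.75 in Tilcara, and Mrps15 7.05 and 7.50 in wild type, and 7.66 and 7.46 in Tilcara; after stimulation the genotypes differed by 0.016, −0.097 and −0.039.

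The lowest differences in resting Tilcara were those of Mrpl49 (−0.49), Mrps10 (−0.37), Mrps2 (−0.27) and Mrpl3 (−0.24). The resting wild-type array also had the higher sums of neutrophil, T cell and macrophage markers given above, and their part in these differences was not tested.

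With stimulation, Mrps21 (0.59), Mrps27 (0.51), Mrpl38 (0.43) and Mrps18c (0.41) were highest in Tilcara relative to wild type. Mrps21, a counterpart of bacterial S21, read 7.57 and 7.71 in wild type, and 7.67 and 8.30 in Tilcara. The lowest were Mrpl9 (−0.19), Mrpl16 (−0.16), Mrpl3 (−0.15) and Mrps9 (−0.13).

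The response itself differed most between genotypes, Tilcara minus wild type, for Mrpl49 (0.69), Mrpl57 (−0.68), Mrps10 (0.67), Mrpl46 (−0.67) and Mrpl47 (−0.65). These differences rest on 4 single arrays and were not tested. They use the same arrays as the genotype differences in each state above, so the lists of genes are not independent. Mrpl49 was lower after stimulation in wild type and higher in Tilcara by at least 0.25 each, and such opposite responses were found in 2.61% of all genes. The response was larger in Tilcara for 33 of the 71 genes, beside 50.1% of all genes. None of the 71 differences reached 1, whereas 2.32% of all genes did so upward and 1.65% downward.

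**Figure D4:**
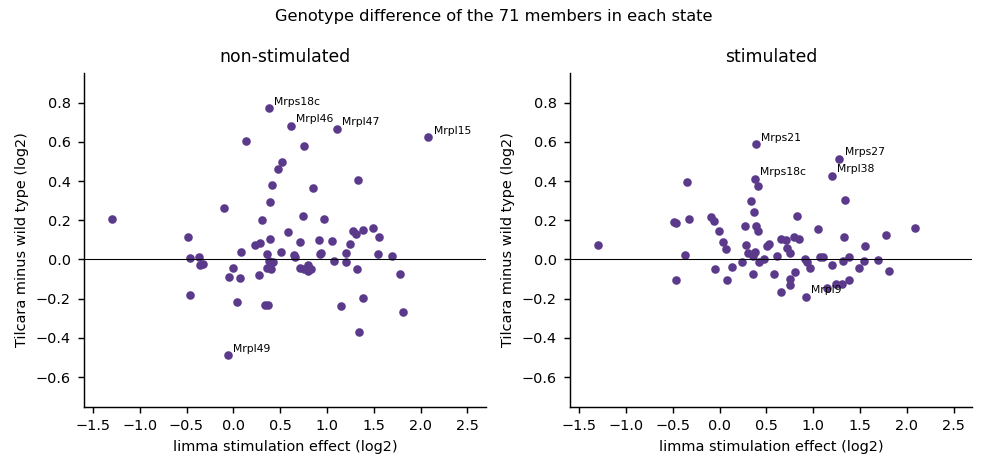
Tilcara minus wild type (vertical axis, log2 signal) of each of the 71 genes without (left) and with stimulation (right), against the limma stimulation effect (horizontal axis, log2), 1 array per group. Points lie between −0.49 and 0.77 on the left and between −0.19 and 0.59 on the right, and the highest and lowest are named.

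Many of these genes start close to another gene that runs the opposite way. RefSeq start sites on GRCm38.p6 were listed for 62 of the 71 genes, and 24 of the 62 (38.7%) had a start of another gene on the opposite strand within 1000 bases upstream, counting overlaps of under 200 bases. Of 9738 genes used with a listed start, 20.1% had one. A single pair joins members of the family, Mrpl46 and Mrps11, whose starts are 42 bases apart. The stretch between them, shown because it is all that separates their starts, is chr7:78783090-78783131 on the minus strand.
Mrpl46: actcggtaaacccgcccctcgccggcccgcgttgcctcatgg
None of the 6 motifs was matched in it. Mrpl46 and Mrps11 had positive differences in both genotypes and neither was called (limma adjusted p = 0.0805 and 0.0766). Mrps11 read 6.85 and 7.27 in wild type, and 6.84 and 7.26 in Tilcara, the same response in both genotypes.

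The other 22 neighbours are not of the family, and 21 of them were measured above the floor. Of these, 5 rose, 5 fell and 11 were not called, with a median effect of 0.08; the 5 of 21 each way are near the 22.0% and 22.8% of all genes. The members beside them had a median of 0.75, and in 15 of the 21 pairs the member had the larger effect. In 2 pairs both genes rose (Mrpl32 with the proteasome gene Psma2 and Mrpl50 with Zfp189), and in 3 the member rose and its neighbour fell. These counts of pairs are given without a like count over pairs of other genes and were not tested.

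Mrpl2, a core protein of the large subunit, starts 141 bases from Klc4, a kinesin light chain gene. Mrpl2 was higher after stimulation by 1.02 in wild type and 1.08 in Tilcara (limma log2 change 1.05, SE 0.15, adjusted p = 0.00666), and Klc4 read 4.26 and 3.44 in wild type, and 4.21 and 3.33 in Tilcara (limma log2 change −0.86, SE 0.15, adjusted p = 0.0113). Both stimulated values of Klc4 lie below the floor. Mrpl51 starts 614 bases from the condensin gene Ncapd2, which fell (limma log2 change −1.33, SE 0.16, adjusted p = 0.00455) where Mrpl51 rose (0.71). Mrpl55 rose (0.79) and 2610507I01Rik, 55 bases away, fell (limma log2 change −0.91, SE 0.15, adjusted p = 0.00949).

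In other pairs the neighbour rose and the member was not called. These were Mrpl27 (0.034) with Eme1 (0.78), Mrpl40 (0.37) with Hira (0.65) and Mrpl18 (−0.47) with Tcp1. Tcp1, a subunit of the cytosolic chaperonin, starts 238 bases from Mrpl18. It read 8.36 and 9.68 in wild type, and 8.47 and 9.58 in Tilcara (limma log2 change 1.21, SE 0.15, adjusted p = 0.00521). The stretches upstream of Mrpl2 (chr17:46646080-46646220 on the plus strand, up to the start of Klc4) and Mrpl18 (chr17:12916092-12916241 on the minus strand) are shown because the genes on either side differed in their calls.
Mrpl2: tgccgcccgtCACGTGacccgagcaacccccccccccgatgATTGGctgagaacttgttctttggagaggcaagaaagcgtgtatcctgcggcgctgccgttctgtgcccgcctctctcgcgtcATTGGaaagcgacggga
Mrpl18: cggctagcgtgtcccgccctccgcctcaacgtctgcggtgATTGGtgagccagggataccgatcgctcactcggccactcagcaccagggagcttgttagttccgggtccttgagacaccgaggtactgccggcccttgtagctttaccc
The capitals in Mrpl2 mark an E-box, the motif to which MYC and its partners bind, and a pair of NF-Y matches. In Mrpl18 they mark 1 NF-Y match.

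**Figure D5:**
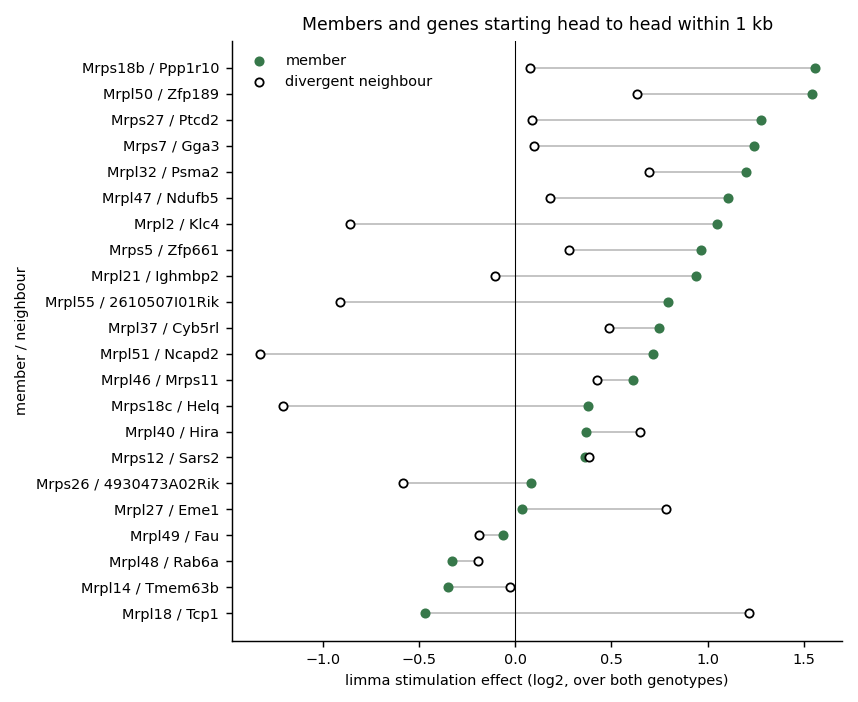
Limma stimulation effect (horizontal axis, log2, over both genotypes) of each member (green) and of the gene that starts on the opposite strand within 1000 bases (open circles), 1 pair per line. The open circles of Klc4, 2610507I01Rik and Ncapd2 lie left of 0 opposite members that rose, and that of Tcp1 lies right of 0 opposite Mrpl18.

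The motifs were counted over 68 windows of the 62 genes, from 250 bases before to 50 after each start, and over 12165 windows of all genes used. The YY1 motif was in 17.6% of the windows of the family and 4.32% of those of all genes used. Over all 32851 windows of the table it was in 2.75%. Of its 12 matches, 8 lay after the start, at positions 12 to 37 and on the sense strand. The NRF1 motif was in 16.2% against 9.4% and the ETS motif in 14.7% against 7.73%. The E-box was in 10.3% against 9.93%, the NF-Y motif in 39.7% against 37.2% and the cyclic AMP element in 2.94% against 2.99%. The 7 family windows with an E-box belong to 5 of the 62 genes, because overlapping windows of Mrpl2 hold the same E-box. NRF1 and GABP are factors known for nuclear genes of mitochondrial proteins.

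Of 11 genes with the NRF1 motif 7 rose, with a median effect of 0.75, and of 51 without it 25 rose (median 0.51). For YY1, 7 of 12 with the motif rose (median 0.73) and 25 of 50 without it (median 0.55). The 10 genes with the ETS motif had a median of 0.23, and 4 of them rose, against a median of 0.63 and 28 of 52 without it. Mrpl2, Mrpl20, Mrpl36 and Mrpl37 rose among the 5 genes with an E-box (median 0.85), and Mrps18c was not called. Without an E-box 28 of 57 rose (median 0.51). With the NF-Y motif 14 of 24 rose, and 18 of 38 without it. For the cyclic AMP element the counts were 1 of 2 and 31 of 60. A match is only a stretch of letters, and these splits were not tested.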

How the data were processed

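The deposited values are log2 signals of 41345 probe sets in 4 arrays. Per the submitters' processing notes they come from RMA; its version is not stated there. Because RMA equalises the distributions of the arrays, a change in total RNA per cell cannot be seen. GEO's platform annotation gave 1 symbol to 23521 probe sets, several to 1814 and none to 16010.

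The brightest probe set stood for a gene, and 12456 genes whose highest value reached the floor of 3.83 were fitted with limma 3.58.1 in R 4.3.3 (stimulation plus genotype, eBayes, Benjamini-Hochberg over all genes). The SE draws on the difference between the responses of the genotypes (1 residual degree of freedom) and more on the spread over all genes (3.46 prior degrees of freedom), so the p-values hold no spread between replicates. The fit was tested on simulated data in which far fewer genes changed than were called here, so that test does not gauge the errors of these calls. Differences between single arrays have no test; counts used 2-fold. The members and lists were chosen with earlier results of these data known. Genes were named by rank of the stimulation effect (10 highest and lowest), by genotype difference, by ribosomal site, or for disagreeing probe sets; neighbouring genes were named after their values were seen. RefSeq promoter windows are on GRCm38.p6, and none was found for 9 members. Alternatives were median centring, cyclic loess, the mean over probe sets, no filter, a filter at the floor plus 1, an intensity trend, all probe sets, and a 1.5-fold limit. Erythroid markers and mitochondrially encoded genes were not analysed here.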

Additional observations from a re-analysis of the deposited data

Results flagged for a closer look

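Mrpl49, a large-subunit protein particular to mitochondria, had responses of opposite sign in the genotypes. It read 6.88 and 6.47 in the wild-type arrays without and with stimulation, and 6.39 and 6.67 in the Tilcara arrays. The response was −0.40 in wild type and 0.28 in Tilcara, a difference of 0.69. It was singled out because each response was at least 0.25 in size and of opposite sign, as was so for 2.61% of all genes. With 1 array per group this difference was not tested.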

How the results depend on the processing

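The 38 genes that rose were called again after centring each array on its median and with the mean over probe sets. With no filter on low values 35 were called again, and after cyclic loess 33. The filter at the floor plus 1, which left 68 of the 71 genes, and the intensity trend each gave 39. With all probe sets fitted, 24 rose. In all, 24 rises and the fall of Mrps16 passed limma's threshold in the fit reported and all 7 alternatives. The count that fell was 5 after cyclic loess (Mrpl18, Mrpl34, Mrpl4, Mrps16 and Mrps35), 4 with the filter at the floor plus 1 and 3 with the intensity trend, against 1. Cyclic loess moved the median response to 0.55 in wild type and 0.42 in Tilcara. A limit of 1.5-fold gave 40 genes higher in wild type and 38 in Tilcara. Effects that changed sign were not called: Mrpl1 (−0.055), Mrps15 (−0.060) and Mrps26 (−0.020) after cyclic loess, and Mrps18c (−0.038) with the mean over probe sets. The causes were not tested. No gene of the family was called for genotype by limma under any of these settings. The fit compares the states within each genotype. No pairing of replicate samples was possible because each group is 1 array with no replicate number in the labels. The number of arrays limits the precision, and no value here has a replicate.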

Other observations

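Genes that copy, transcribe and stabilise the mitochondrial genome, from which the ribosomal RNAs come, were mixed. Of 15 used, 6 rose (40.0%) and 2 fell (13.3%) by limma, beside 22.0% and 22.8% of all genes. Supv3l1, an RNA helicase gene, read 5.67 and 7.52 in wild type, and 5.93 and 7.53 in Tilcara (limma log2 change 1.72, SE 0.16, adjusted p = 0.00246), followed by Lrpprc (1.28), Rnaseh1 (1.19), the replicative helicase gene Twnk (1.11), the transcription factor gene Tfb2m (1.03) and Pnpt1 (0.65). Polg2, the accessory subunit of the mitochondrial DNA polymerase, fell, with signals of 6.98 and 4.50 in wild type, and 6.89 and 5.24 in Tilcara (limma log2 change −2.07, SE 0.25, adjusted p = 0.00449), as did Mterf2 (−1.74). Tfam, which packages mitochondrial DNA, read 6.19 and 6.03 in wild type, and 6.22 and 6.30 in Tilcara and was not called.

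Of 10 transcription factors and coactivators known for genes of mitochondrial proteins, 4 rose and 2 fell by limma. Myc read 8.96 and 10.92 in wild type, and 8.75 and 10.75 in Tilcara (limma log2 change 1.98, SE 0.15, adjusted p = 0.00168), and the coactivator gene Pprc1 read 7.35 and 9.14 in wild type, and 7.38 and 9.05 in Tilcara (limma log2 change 1.73, SE 0.15, adjusted p = 0.00217). Gabpb1 (1.26) and Gabpa (0.79) rose too, whereas Gabpb2 (−0.59) and Ppargc1a fell. Ppargc1a read 4.24 and 2.76 in wild type, and 3.33 and 2.81 in Tilcara, and only its non-stimulated wild-type value lies above the floor. Nrf1 (0.14) and Yy1 (0.23) were not called. Over all genes used, 22.0% rose and 22.8% fell.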
